A study of Mus musculus with 24 samples.

Results

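The 10 genes described here encode the kinases and sensors that start the DNA damage checkpoint: Atm, Atr, Atrip, Rad17, Topbp1, Clspn, Mdc1, H2afx, Chek1 and Chek2. They were chosen by name as members of 1 pathway, out of 21671 genes measured in every sample. RNA-Seq was performed on mouse spleen cells of the C57/Bl6 strain at 8 weeks of age, and the question was how these transcripts changed after ionizing radiation (IR) in cells with or without p53. B cells were enriched with magnetic beads against B220, a CD45 isoform found on B cells, and non-B cells were what passed through the column, a T cell-enriched mixture. For each cell type, 4 Trp53+/+ and 2 Trp53-/- samples came from unstressed (mock) mice and as many from mice 4 h after whole-body IR at 7 Gy, 24 samples in all. The Trp53-/- mice carried a p53 knockout allele in all tissues, and red blood cells were lysed before separation.

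Double-strand breaks activate the kinase ATM, and stretches of single-stranded DNA activate ATR. ATM phosphorylates the histone variant H2AX (H2afx), on which MDC1 assembles, and it switches on the effector kinase CHK2 (Chek2). ATR is brought to DNA by its partner ATRIP and needs the clamp loader subunit RAD17 and the activator TOPBP1. With the adaptor claspin (Clspn), it switches on the second effector kinase, CHK1 (Chek1), which holds back cyclin-dependent kinases. Much of this signalling is by phosphorylation, which RNA levels do not report. Chek1 and Clspn are known to be transcribed mainly in proliferating cells, and resting lymphocytes of the spleen hold little of either.

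The samples were checked before the members were described. The summed RPKM (reads on a gene scaled to its exon length and to all reads on exons) of 8 B cell markers was between 800.0 and 1096.0 in the B cell samples and between 202.0 and 540.6 in the non-B samples. That of 8 T cell markers ranged from 36.4 to 76.6 RPKM in the B cell samples and from 326.7 to 719.3 RPKM in the others, so that the non-B samples were enriched for T cells but kept B cell transcripts. Trp53 was between 43.4 and 49.5 RPKM in unstressed Trp53+/+ samples and between 21.6 and 25.0 RPKM in unstressed Trp53-/- samples. After IR it was between 58.7 and 65.8 RPKM in Trp53+/+ and between 40.5 and 41.8 RPKM in Trp53-/- B samples, but between 35.0 and 38.6 and between 34.6 and 36.4 RPKM in the non-B samples of these genotypes, which overlapped. Cdkn1a, the p53 target that encodes p21, was between 69.6 and 97.8 RPKM in irradiated Trp53+/+ samples and between 0.56 and 2.63 RPKM in all Trp53-/- samples.

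Several libraries stood apart. Unstressed Trp53+/+ non-B replicates 1 and 2 had summed erythroid marker levels of 357.1 and 353.2 RPKM, against 106.7 and 127.3 in replicates 3 and 4, and summed levels of 15 proliferation genes of 762.1 and 711.4 RPKM, against 343.9 and 384.2. Unstressed Trp53-/- non-B replicate 2 was also higher than replicate 1 in both, with 254.6 against 55.9 RPKM of erythroid markers and 554.1 against 338.1 RPKM of proliferation genes. Irradiated Trp53+/+ B replicates 1 and 2 had the lowest estimated depths, 6.08 and 4.74 M reads, against up to 10.96 M reads in other samples. In them, 36.67% and 47.29% of 1440 odorant and vomeronasal receptor genes, which blood cells do not use, had an RPKM above 0. This share was between 8.61% and 51.32% in irradiated Trp53+/+ non-B samples and at most 9.31% in unstressed samples. Calls of members that changed without the pair of unstressed Trp53+/+ non-B libraries, or without the pair of irradiated Trp53+/+ B libraries, are given both ways. These are bulk samples, in which fewer cells of a type and less RNA per cell cannot be told apart.

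Of the 10 genes, 6 lie on mouse chromosome 9 (NCBIM37, the assembly that mm9 represents): Atm at chr9:53247254-53344845, Atr at chr9:95758016-95852063, Chek1 at chr9:36516067-36534650, Atrip at chr9:108960447-108976638, Topbp1 at chr9:103207545-103252762 and H2afx at chr9:44142798-44144154. Chek2 lies at chr5:111269036-111303152, Clspn at chr4:126234179-126271147, Mdc1 at chr17:35978460-35996615 and Rad17 at chr13:101387120-101421014. Exons of Atrip share sequence with Trex1, an exonuclease gene on the same strand, and exons of Atr overlap the noncoding genes Gm16794 and 1700065D16Rik on the opposite strand. Strand cannot separate Atrip from Trex1, and the library kit does not mark strand, which bears on Atr. Depending on how shared reads were counted, the values of Atr and Atrip may include reads of these neighbours or lack some of their own. They are uncertain in that respect. Chek2 has the start of Hscb, a gene of iron-sulphur cluster assembly, 240 bases away on the opposite strand, and Atm has that of Npat at 307 bases.

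The promoters of the 2 effector kinases are shown because Chek2 had the largest change among the members in irradiated B cells with p53 and Chek1 in those without it, as described further on. The sequences are those of RefSeq (GRCm38.p6), 250 bases before to 50 after the start, on the strand of the gene, at chr9:36726609-36726908 (minus strand) for Chek1 and at chr5:110839733-110840032 (plus strand) for Chek2. Capitals mark matches to the words searched, and in Chek2 also the best match to the p53 response element.
Chek1: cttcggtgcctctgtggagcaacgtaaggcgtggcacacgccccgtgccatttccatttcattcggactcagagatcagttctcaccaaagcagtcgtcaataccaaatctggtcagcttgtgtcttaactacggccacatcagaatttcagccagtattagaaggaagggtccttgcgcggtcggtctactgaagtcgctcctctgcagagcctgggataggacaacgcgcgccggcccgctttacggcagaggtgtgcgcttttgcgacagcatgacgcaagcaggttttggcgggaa
Chek2: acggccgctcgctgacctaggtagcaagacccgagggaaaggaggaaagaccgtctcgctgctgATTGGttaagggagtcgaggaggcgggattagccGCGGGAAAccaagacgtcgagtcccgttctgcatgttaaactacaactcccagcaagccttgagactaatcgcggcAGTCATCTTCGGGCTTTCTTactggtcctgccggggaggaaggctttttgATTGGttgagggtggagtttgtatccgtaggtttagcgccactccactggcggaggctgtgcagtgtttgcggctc
The words were TTTCCCGC and TTTGGCGC for E2F factors, TTTGAA and TTCGAA for the cell cycle homology region, and CCAAT, all read on both strands. With positions counted from the start of the gene, the Chek2 window held the first E2F word at -152 and CCAAT at -186 and -26, all on the opposite strand. The best match to the p53 response element began at -76, with 3 mismatches. A match that good was found in 6.24% of 27025 mouse promoters of this length, an E2F word in 1.63% and CCAAT in 37.92%. None of these words was in the Chek1 window, whose best match to the p53 element had 6 mismatches. Only exact E2F words were counted, so that a near match such as TTTGGCGG at the end of that window was not. Among the other members with a promoter, Mdc1 had an E2F word, and Atm, Atrip, Clspn and Mdc1 had CCAAT. Atr had TTCGAA at -215, a word found in 1.57% of all promoters, while either word of the cell cycle homology region was found in 19.44%. Of the 10 genes, 9 were in the promoter table, all but H2afx.

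Levels differed widely among the members. RPKM is per length of exon, so that levels can be compared between genes. The median over the 24 samples was 35.8 RPKM for H2afx, 34.1 for Mdc1, 27.1 for Atm, 25.1 for Topbp1, 19.4 for Rad17, 15.9 for Atr, 12.8 for Chek2, 10.8 for Atrip, 4.97 for Clspn and 1.70 for Chek1. Chek1 thus had the lowest level, with about 36 to 410 reads per sample as estimated from depth and gene length, against 1194 to 3884 for Atm. Its values carry the largest counting error of the set. The highest group mean of Chek1 was 7.54-fold its lowest, the widest span of the 10, followed by 4.02-fold for Chek2 and 3.21-fold for Clspn. Mdc1 spanned the least, 1.26-fold.

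**Figure D1:**
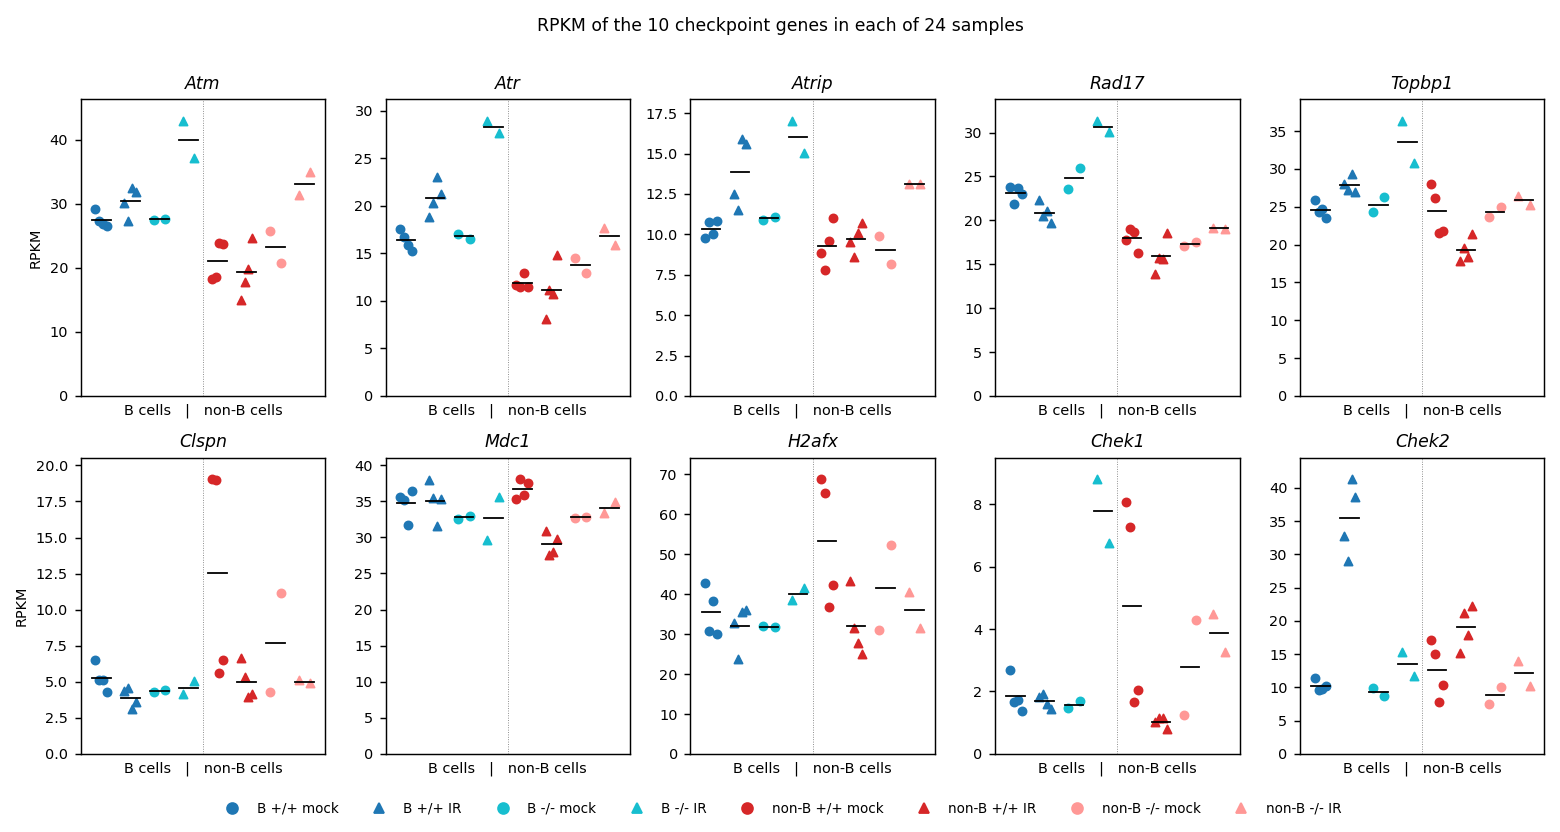
RPKM (y axis, from 0) of each of the 10 genes in the 24 samples, with 1 point per sample, circles for mock, triangles for IR, and a line at each group mean. Chek2 was highest in the 4 irradiated Trp53+/+ B samples, Chek1 in the 2 irradiated Trp53-/- B samples and in 2 of the 4 unstressed Trp53+/+ non-B samples.

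Each response was tested with limma on log2(RPKM + 0.5), in 1 fit over the 12 samples of a cell type. A gene was called when its Benjamini-Hochberg adjusted p over all genes tested was under 0.05 and its absolute log2 fold change above 0.58. Fold changes are on the log2(RPKM + 0.5) scale, which understates those of low genes. All 10 members passed the filter on low values (an RPKM above 1 in at least 1 Trp53+/+ sample of the fit). The p-values measure the spread between these samples, which the study's methods describe as mice.

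Chek2 was the one member called in irradiated Trp53+/+ B cells, where its transcript rose 3.32-fold, while Chek1 was called in irradiated Trp53-/- B cells, where it rose 3.96-fold. Up-calls thus covered 1 of the 10 genes in Trp53+/+ B cells, where 12.5% of all genes tested were called up, and 2 of 10 in Trp53-/- B cells, Chek1 and Atr, where 13.1% were. No member was called down, against 12.2% and 11.2% of all genes, respectively. Among the log2 fold changes below 0, those of Clspn and Rad17 had an unadjusted limma p under 0.05 in Trp53+/+ B cells, and none did in Trp53-/- B cells. Without the minimum fold, 5 members passed the limma adjusted p in Trp53+/+ B cells, beside 51.3% of all genes, and 7 in Trp53-/- B cells, beside 40.1%. The median log2 fold change of the 10 genes was 0.08 in Trp53+/+ and 0.45 in Trp53-/- B cells, beside 0.01 and 0.02 over all genes tested.

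Atm, the kinase of double-strand breaks, was at 29.1, 27.3, 26.8 and 26.6 RPKM in unstressed Trp53+/+ B samples and at 30.2, 27.3, 32.4 and 31.8 RPKM after IR. Without p53 it was at 27.6 and 27.6 RPKM unstressed and at 42.9 and 37.1 RPKM after IR. The Trp53+/+ groups overlapped, while both irradiated Trp53-/- samples were above every other B cell sample. The log2 fold change of Atm was 0.14 (SE 0.068, limma adjusted p = 0.096) with p53 and 0.52 (SE 0.096, limma adjusted p = 0.000936) without it, the latter under the minimum fold.

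Atr, the kinase of replication stress, was at 17.6, 16.7, 15.9 and 15.2 RPKM in unstressed and at 18.8, 20.3, 23.0 and 21.2 RPKM in irradiated Trp53+/+ B samples. Without p53 it went from 17.1 and 16.6 RPKM to 28.9 and 27.7 RPKM. The irradiated samples were above the unstressed ones in both genotypes, with no overlap. The log2 fold change of Atr was 0.34 (SE 0.071, limma adjusted p = 0.00173) in Trp53+/+ and 0.73 (SE 0.101, limma adjusted p = 0.000124) in Trp53-/- B cells, and only the second was called. Its partner Atrip had log2 fold changes of 0.39 (limma adjusted p = 0.00729) and 0.52 (limma adjusted p = 0.0138), neither past the minimum fold. Without irradiated Trp53+/+ B replicates 1 and 2, which were at 12.5 and 11.5 RPKM against 15.9 and 15.6 in the others, the Atrip change was 0.58 on the log2 scale (limma adjusted p = 0.000255) and was called.

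Rad17, which loads the 9-1-1 clamp next to damage, was between 21.9 and 23.8 RPKM in unstressed and between 19.7 and 22.3 RPKM in irradiated Trp53+/+ B samples. Without p53 it was at 23.6 and 26.0 RPKM unstressed and at 31.3 and 30.1 RPKM after IR. The irradiated samples were thus the lower ones with p53, with some overlap, and the higher ones without it. The log2 fold changes were -0.14 (limma adjusted p = 0.0578) and 0.30 (limma adjusted p = 0.0123). Topbp1, the activator of ATR, had log2 fold changes of 0.18 (limma adjusted p = 0.0339) in Trp53+/+ and 0.40 (limma adjusted p = 0.00361) in Trp53-/- B cells, both under the minimum fold.

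Clspn, the claspin gene, was at 6.54, 5.14, 5.14 and 4.31 RPKM in unstressed and at 4.34, 4.56, 3.10 and 3.62 RPKM in irradiated Trp53+/+ B samples. The groups overlapped, and the log2 fold change of -0.39 (SE 0.151, limma adjusted p = 0.0454) was under the minimum fold. In Trp53-/- B samples Clspn had a log2 fold change of 0.06 (SE 0.213, limma adjusted p = 0.854). Mdc1 and H2afx, the platform of damage foci, were not called in B cells of either genotype, with log2 fold changes between -0.15 and 0.32. The 95% confidence interval of the Mdc1 change ran from -0.15 to 0.18 in Trp53+/+ B cells.

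Chek1 was at 2.70, 1.67, 1.72 and 1.36 RPKM in unstressed Trp53+/+ B samples and at 1.83, 1.92, 1.60 and 1.42 RPKM after IR. In Trp53-/- B samples it was at 1.46 and 1.69 RPKM unstressed and at 8.79 and 6.75 RPKM after IR. The irradiated Trp53-/- samples were far above all other B cell samples, and the Trp53+/+ groups overlapped. The log2 fold change of Chek1 was 1.99 (SE 0.256, limma adjusted p = 7.55e-05) in Trp53-/- B cells and -0.08 (SE 0.181, limma adjusted p = 0.724) in Trp53+/+ B cells, where the 95% confidence interval ran from -0.47 to 0.31.

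Chek2 was at 11.5, 9.55, 9.79 and 10.2 RPKM in unstressed Trp53+/+ B samples and at 32.8, 29.0, 41.3 and 38.5 RPKM after IR. In Trp53-/- B samples it was at 9.95 and 8.68 RPKM unstressed and at 15.3 and 11.6 RPKM after IR. All irradiated samples were above the unstressed ones of their genotype, and every irradiated Trp53+/+ sample was above both irradiated Trp53-/- samples. The log2 fold change of Chek2 was 1.73 (SE 0.119, limma adjusted p = 1.99e-07) in Trp53+/+ and 0.50 (SE 0.168, limma adjusted p = 0.0319) in Trp53-/- B cells, the latter under the minimum fold. Without irradiated Trp53+/+ B replicates 1 and 2, the former was 1.91 (limma adjusted p = 1.12e-06). In 1 of the fits that left out a sample, that without irradiated Trp53-/- B replicate 2, Chek2, Atm and Atrip were also called up in Trp53-/- B cells, with log2 fold changes of 0.69, 0.63 and 0.60 that rest on the lone sample left.

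**Figure D2:**
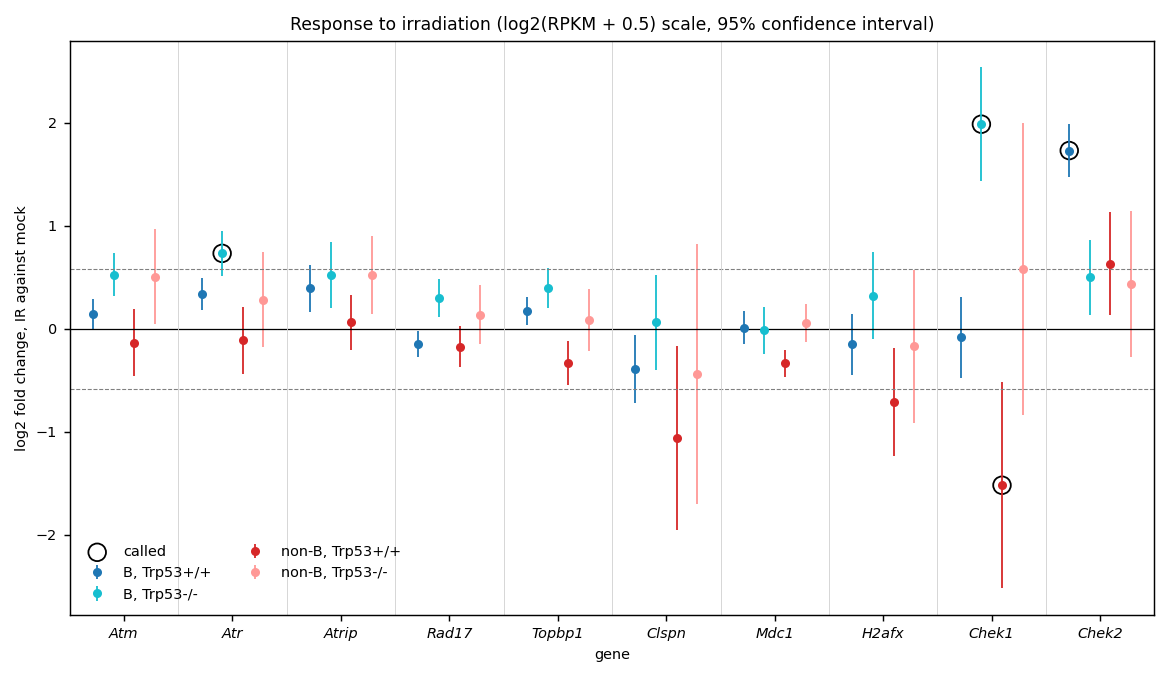
Log2 fold change after IR (y axis, log2(RPKM + 0.5) scale) of each gene in the 4 combinations of cell type and genotype, with 95% confidence intervals, dashed lines at the minimum fold and black rings around called values. The rings are on Chek2 in Trp53+/+ B cells, Chek1 and Atr in Trp53-/- B cells and Chek1 in Trp53+/+ non-B cells.

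Whether the response differed between the genotypes was tested directly, as the Trp53+/+ response minus that of Trp53-/- cells, with an adjusted p under 0.05 and no minimum fold. In B cells this difference was called for 5 of the 10 members, beside 18.8% of all genes tested. Chek2 rose more with p53, by 1.23 on the log2 scale (SE 0.206, limma adjusted p = 0.00169). The other 4 were lower in the Trp53+/+ response, by -2.07 for Chek1 (SE 0.313, limma adjusted p = 0.000881), -0.45 for Rad17 (SE 0.102, limma adjusted p = 0.0108), -0.38 for Atm (SE 0.117, limma adjusted p = 0.0407) and -0.39 for Atr (SE 0.124, limma adjusted p = 0.0433). The differences of Chek1 and Chek2 were called in each of the 12 fits that left out 1 sample, those of Atm and Atr were lost in 7 and 10 of them. Rad17 was lost without unstressed Trp53-/- replicate 1 (limma adjusted p = 0.078) and without irradiated Trp53-/- replicate 1 (limma adjusted p = 0.054). Without irradiated Trp53+/+ B replicates 1 and 2, Atm (limma adjusted p = 0.0653) and Atr (limma adjusted p = 0.0763) were lost too, which left 3 members.

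No difference between the genotypes was detected in unstressed cells. None of the 10 was called between Trp53-/- and Trp53+/+ B cells, and none had an unadjusted limma p under 0.05, in a comparison in which 0.0506% of all genes were called. In unstressed non-B cells again none was called, and none had an unadjusted limma p under 0.05, beside 0.0428% of all genes. The widest intervals there were those of Chek1, -1.82 to 0.64 on the log2 scale, and Clspn, -1.69 to 0.50. Sizeable differences of these 2 genes may thus have gone undetected. With as many samples per group, the intervals in unstressed B cells were narrower, -0.64 to 0.32 for Chek1 and -0.64 to 0.16 for Clspn. Each fit estimated the spread of a gene over all its groups together. In unstressed Trp53+/+ samples, the SDs of Chek1 and Clspn were 3.37 and 7.48 RPKM in non-B cells. In B cells they were 0.58 and 0.93 RPKM.

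In Trp53+/+ non-B cells the largest changes after IR were those of Chek1 and Clspn, and they depended on 2 unstressed libraries. In this comparison, 1 of the 10 members was called, Chek1, which fell by 1.52 on the log2 scale, beside 4.11% of all genes called down and 5.74% called up. Without the minimum fold, 3 members passed the limma adjusted p, beside 18.7% of all genes. In Trp53-/- non-B cells none was called up (0.193% of all genes) or down (0.25%). By the looser limit of an unadjusted limma p under 0.05, for which no share of all genes is given here, 2 members passed. These were Atm and Atrip, with limma adjusted p of 0.267 and 0.175. The median log2 fold change of the 10 genes was -0.25 with p53 and 0.21 without it, beside -0.03 and -0.02 over all genes tested.

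Chek1 was at 8.05, 7.26, 1.65 and 2.04 RPKM in unstressed Trp53+/+ non-B samples and at 1.02, 1.16, 1.15 and 0.80 RPKM after IR. The groups did not overlap, but unstressed replicates 1 and 2, the libraries with high erythroid and proliferation transcripts, were far above the other 2. The log2 fold change of -1.52 (SE 0.457, limma adjusted p = 0.0399) became -0.62 (SE 0.345, limma adjusted p = 0.255) without these 2 libraries and was no longer called. The call was also lost in 8 of the 12 fits that left out 1 sample, among them those without unstressed replicate 1 (log2 fold change -1.20, limma adjusted p = 0.0929) or 2 (-1.24, limma adjusted p = 0.103), without any 1 irradiated Trp53+/+ sample (limma adjusted p between 0.0682 and 0.0813) and without either irradiated Trp53-/- sample (limma adjusted p = 0.0533 and 0.0534). With the mean receptor gene level of each sample as a covariate, the log2 fold change was -1.54 (limma adjusted p = 0.237). In Trp53-/- non-B samples Chek1 was at 1.26 and 4.28 RPKM unstressed and at 4.48 and 3.27 RPKM after IR, so that these groups overlapped. The log2 fold change there was 0.58, with a 95% confidence interval from -0.84 to 2.00. Without unstressed replicate 2, the library with more erythroid and proliferation transcripts, it was 1.30. Over all fits that left out 1 sample, it lay between -0.14 and 1.30.

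Clspn was at 19.0, 19.0, 5.61 and 6.51 RPKM in unstressed and at 6.62, 5.36, 3.92 and 4.15 RPKM in irradiated Trp53+/+ non-B samples, and H2afx at 68.7, 65.4, 36.8 and 42.3 RPKM and at 43.3, 31.6, 27.8 and 25.1 RPKM. Both were highest in the same 2 unstressed libraries as Chek1, and both groups overlapped. The log2 fold changes of -1.06 for Clspn (SE 0.408, limma adjusted p = 0.0884) and -0.71 for H2afx (SE 0.24, limma adjusted p = 0.0602) were not called. With the replicate number as a block both were called, with limma adjusted p of 0.035 and 0.026. Whether equal numbers mark paired samples is uncertain, since unstressed replicates 2 and 3 correlated more with a differently numbered irradiated sample. Without unstressed replicates 1 and 2, the log2 fold changes were -0.27 (limma adjusted p = 0.591) for Clspn and -0.33 (limma adjusted p = 0.37) for H2afx.

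Chek2 was at 17.1, 15.0, 7.76 and 10.4 RPKM in unstressed and at 15.2, 21.2, 17.9 and 22.2 RPKM in irradiated Trp53+/+ non-B samples. The groups overlapped through unstressed replicate 1 alone, and the log2 fold change of 0.63 (SE 0.228, limma adjusted p = 0.0738) was not called. Without unstressed replicates 1 and 2 it was 1.03 (SE 0.202, limma adjusted p = 0.00819) and was called. It was also called, at 0.80, without replicate 1 alone (limma adjusted p = 0.0348). In Trp53-/- non-B samples Chek2 was at 7.53 and 10.1 RPKM unstressed and at 14.0 and 10.2 RPKM after IR, a log2 fold change of 0.44 (SE 0.323, limma adjusted p = 0.565).

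Mdc1 was between 35.3 and 38.0 RPKM in unstressed and between 27.5 and 30.9 RPKM in irradiated Trp53+/+ non-B samples. The groups did not overlap, and the log2 fold change of -0.33 (SE 0.06, limma adjusted p = 0.00375) was under the minimum fold. Topbp1 had a log2 fold change of -0.33 as well (SE 0.097, limma adjusted p = 0.0363), also without overlap of the groups. Atm, Atr, Atrip and Rad17 had log2 fold changes between -0.17 and 0.07 in Trp53+/+ non-B cells. In Trp53-/- non-B cells Atm went from 25.8 and 20.7 RPKM to 31.5 and 34.9 RPKM and Atrip from 9.93 and 8.16 RPKM to 13.1 and 13.1 RPKM, with log2 fold changes of 0.51 (SE 0.211, limma adjusted p = 0.267) and 0.52 (SE 0.173, limma adjusted p = 0.175). The irradiated samples of both genes were above the unstressed ones, but neither change passed the test.

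The genotype difference of the response in non-B cells was called for 1 of the 10 members, Mdc1, beside 7.35% of all genes. Its response was lower in Trp53+/+ cells, with a difference of -0.39 on the log2 scale (SE 0.103, limma adjusted p = 0.0454). With the replicate block (limma adjusted p = 0.0744) or without unstressed Trp53+/+ replicates 1 and 2 (limma adjusted p = 0.0779) this was not called, and it was lost in 10 of the 12 fits that left out 1 sample, with limma adjusted p up to 0.138. The difference of Chek1 was -2.10 and did not pass the test (SE 0.792, limma adjusted p = 0.127). Without unstressed Trp53+/+ non-B replicates 1 and 2 it was -1.20 (SE 0.527, limma adjusted p = 0.174), and with any 1 sample left out it lay between -2.82 and -1.38. That of Chek2 was 0.20 (SE 0.396, limma adjusted p = 0.779).

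**Figure D3:**
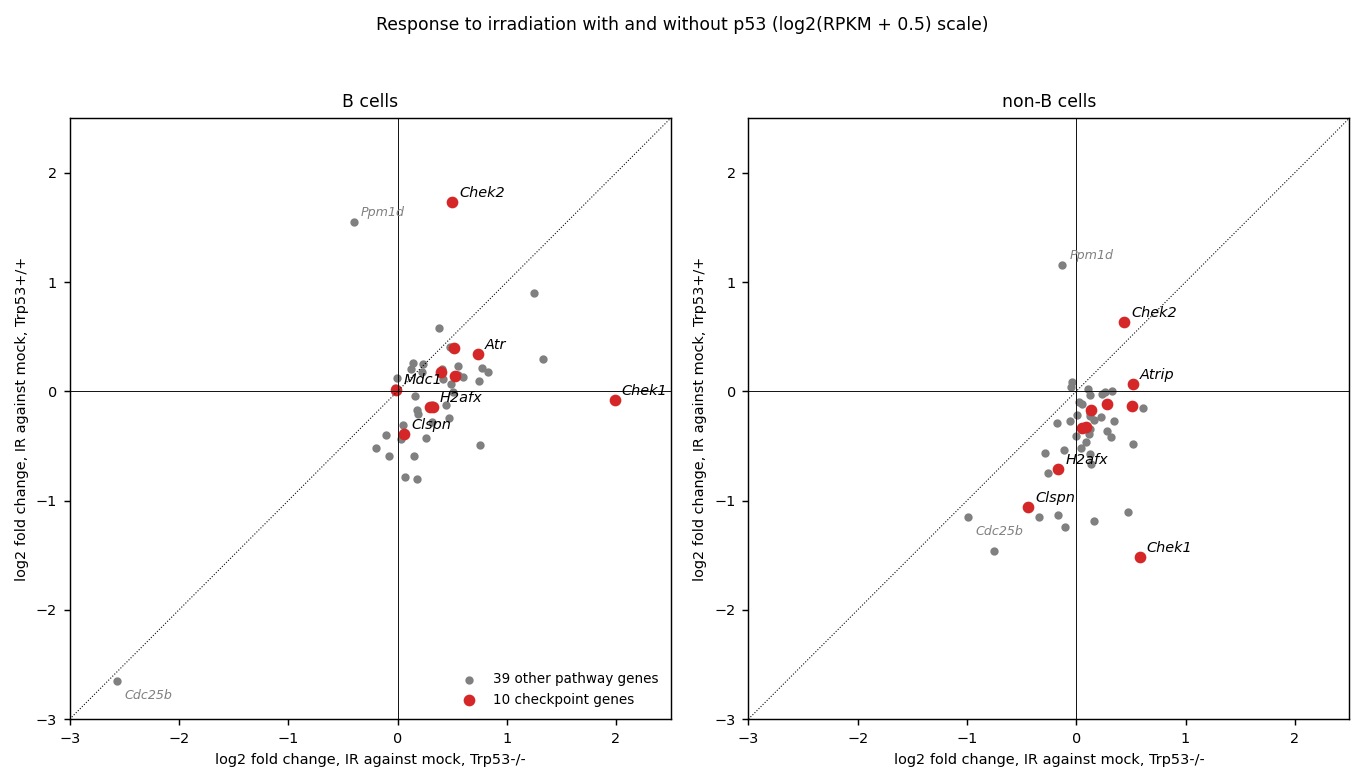
Log2 fold change after IR in Trp53+/+ (y axis) against Trp53-/- cells (x axis), for B cells (left) and non-B cells (right), with the 10 checkpoint genes in red, 39 other pathway genes in grey and a dotted line of equal response. Chek2 and Ppm1d lie above the line in both panels, and Chek1 lies far below it, at -0.08 against 1.99 in B cells and -1.52 against 0.58 in non-B cells, where no difference but that of Mdc1 among the 10 was called.

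The responses of the 2 cell types were compared in a fit over the 16 Trp53+/+ samples, as the response of B cells minus that of non-B cells. By the study's methods, non-B cells were the flow-through of the columns that held the B cells, so that B and non-B samples probably share mice. The labels do not say which samples belong together. The fit took all 16 as separate samples, so that its p-values leave out this pairing. Deviations from the group mean of same-numbered B and non-B samples correlated at 0.362, 0.024, -0.065 and 0.218 in unstressed samples. After IR they correlated at 0.168, -0.081, 0.081 and 0.308. The difference of the responses was called for 4 of the 10 members, beside 28% of all genes, and all 4 were higher in the B cell response. The difference was 1.44 for Chek1 (SE 0.507, limma adjusted p = 0.044), 1.10 for Chek2 (SE 0.271, limma adjusted p = 0.00666), 0.51 for Topbp1 (SE 0.12, limma adjusted p = 0.00503) and 0.35 for Mdc1 (SE 0.095, limma adjusted p = 0.0126). Without unstressed non-B replicates 1 and 2, Chek1 came to 0.54 (limma adjusted p = 0.179) and was lost, and Chek2 came to 0.70 (limma adjusted p = 0.0255). The Chek1 call was lost in 13 of the 16 fits that left out 1 sample, with limma adjusted p up to 0.089. Without irradiated B replicates 1 and 2, Mdc1 (limma adjusted p = 0.0502) and Chek1 (1.32, limma adjusted p = 0.117) were lost, and Atrip was called at 0.52 (limma adjusted p = 0.0305).

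Levels in B against non-B cells were compared in the same fit. In unstressed samples 1 of the 10 members was called, Clspn, beside 24.6% of all genes. Without the minimum fold, 5 members passed the limma adjusted p in unstressed samples, beside 41% of all genes, and 7 in irradiated samples, beside 60.1%. Clspn was lower in B cells, by -0.98 on the log2 scale (SE 0.321, limma adjusted p = 0.0221). Without unstressed non-B replicates 1 and 2 the difference was -0.19 (limma adjusted p = 0.545). The call was also lost without either of them alone (-0.72 each, limma adjusted p = 0.0832 and 0.0862) and without unstressed B replicate 4 (limma adjusted p = 0.0579). In irradiated samples 3 members were called, all higher in B cells, beside 35.6% of all genes: Atr by 0.90 (SE 0.13, limma adjusted p = 1.84e-05), Chek2 by 0.87 (SE 0.192, limma adjusted p = 0.000926) and Atm by 0.66 (SE 0.124, limma adjusted p = 0.000237). Without irradiated non-B replicate 1, Atm was 0.55 higher, under the minimum fold. Without irradiated B replicates 1 and 2, Atrip was also called, at 0.67 (limma adjusted p = 0.000503).

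In the order of group means, irradiated Trp53-/- B cells held the highest level of 6 members, Atm, Atr, Chek1, Atrip, Topbp1 and Rad17. Irradiated Trp53+/+ non-B cells held the lowest of 6, Atm, Atr, Chek1, Topbp1, Mdc1 and Rad17. For Chek1 the second in that order, unstressed Trp53+/+ non-B cells (4.75 ± 3.37 RPKM, SD, n = 4), did not stand apart from the first, irradiated Trp53-/- B cells (7.77 ± 1.44, SD, n = 2), since 2 of its samples reached 8.05 and 7.26 RPKM. For Chek2 the highest group, irradiated Trp53+/+ B cells (35.4 ± 5.53 RPKM, SD, n = 4), did not overlap with the second, irradiated Trp53+/+ non-B cells (19.1 ± 3.21 RPKM, SD, n = 4). The other 6 groups of Chek2, with means between 8.81 and 13.5 RPKM, overlapped with one another in part.

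The other genes of the pathway were read from lists of 16 genes of the ATM branch, 13 of the ATR branch, 5 of kinase assembly and 5 checkpoint targets, 39 in all. In Trp53+/+ B cells 2 of the 39 were called up and 5 down, beside 12.5% and 12.2% of all genes tested. Those up were Ppm1d, the phosphatase that turns ATM signalling off (log2 fold change 1.55, SE 0.08, limma adjusted p = 1.77e-08), and Telo2, which helps to assemble ATM and ATR (0.90, SE 0.084, limma adjusted p = 2.56e-06). Of those down, Cdc25b, a phosphatase that activates cyclin-dependent kinases, had the largest change, and it fell by 2.65 on the log2 scale (limma adjusted p = 1.87e-08). From the ATM branch Bard1, the partner of Brca1, fell by 0.59, and from the ATR branch Rpa3, a subunit of the single-strand binding complex, fell by 0.78.

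Without p53, 6 of the 39 were called up and 1 down in B cells, beside 13.1% and 11.2% of all genes tested. Cdc25b fell by 2.56 there as well (limma adjusted p = 1.91e-06), and Telo2 rose by 1.25 on the log2 scale. Ppm1d had a log2 fold change of -0.40 without p53, under the minimum fold. The genotype difference was called for 15 of the 39, 1 of them, Ppm1d, higher and 14 lower in the Trp53+/+ response. Over all genes, 8.14% were called higher and 10.6% lower. Of the 13 ATR branch genes, 7 were among the lower ones, and all 13 had a difference below 0, with a median of -0.52 beside -0.06 over all genes. The pattern was not particular to this branch. Of 15 proliferation genes, described further on, 8 were called lower and all were below 0, with a median of -0.98. Of 16 ATM branch genes, 5 were called lower, with a median of -0.25. The ATR branch had a median log2 fold change of -0.28 in Trp53+/+ and 0.31 in Trp53-/- B cells.

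In Trp53+/+ non-B cells 1 of the 39 was called up and 5 down, beside 5.74% and 4.11% of all genes. Ppm1d was the 1 called up (log2 fold change 1.16, SE 0.081, limma adjusted p = 3.79e-06). Cdc25b fell by 1.15 (limma adjusted p = 0.000104), Rfc4, a clamp loader subunit, by 1.19 (limma adjusted p = 0.032) and Bard1 by 1.13 (limma adjusted p = 0.0475). In Trp53-/- non-B cells Cdc25b alone was called, with a fall by 0.99 (limma adjusted p = 0.0395), where 0.25% of all genes were called down. The ATR branch had a median of -0.47 in Trp53+/+ and 0.09 in Trp53-/- non-B cells.

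Proliferation genes moved beside some members. Of 15, which include Mki67 and the replication helicase genes Mcm2 to Mcm7, 7 were called down in Trp53+/+ B cells and 9 in Trp53+/+ non-B cells, and 4 were called up in Trp53-/- B cells. The shares of all genes were 12.2%, 4.11% and 13.1%. Of 8 erythroid markers, 6 were called down in Trp53+/+ B cells and 5 in Trp53+/+ non-B cells, beside the same 12.2% and 4.11% of all genes. Of 8 B cell and 8 T cell markers, 2 and 3 were called down in Trp53+/+ non-B cells, where all 16 had a log2 fold change below 0, with medians of -0.56 and -0.34 beside -0.03 over all genes. In Trp53+/+ B cells 3 and 2 were called down, with medians of -0.10 and -0.15. Over the 24 samples, the mean log2 level of the 15 genes had a Pearson r of 0.92 with Clspn, 0.92 with H2afx and 0.76 with Chek1, and a Spearman rho of 0.75, 0.82 and 0.72. Without unstressed Trp53+/+ non-B replicates 1 and 2, the 2 samples farthest from the median, r was 0.79, 0.82 and 0.63. In the 10 remaining non-B samples it was 0.85, 0.88 and 0.82, and in the 12 B cell samples 0.68, 0.73 and 0.61. Chek2 had an r of -0.33 over the 24 samples, and Atm and Atr -0.29 and -0.26, and without the same 2 samples these were -0.58, 0.06 and -0.05. These are descriptions over samples that share groups and treatment, and the part of proliferating, erythroid, B or T cells in the changes of the members was not tested.

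**Figure D4:**
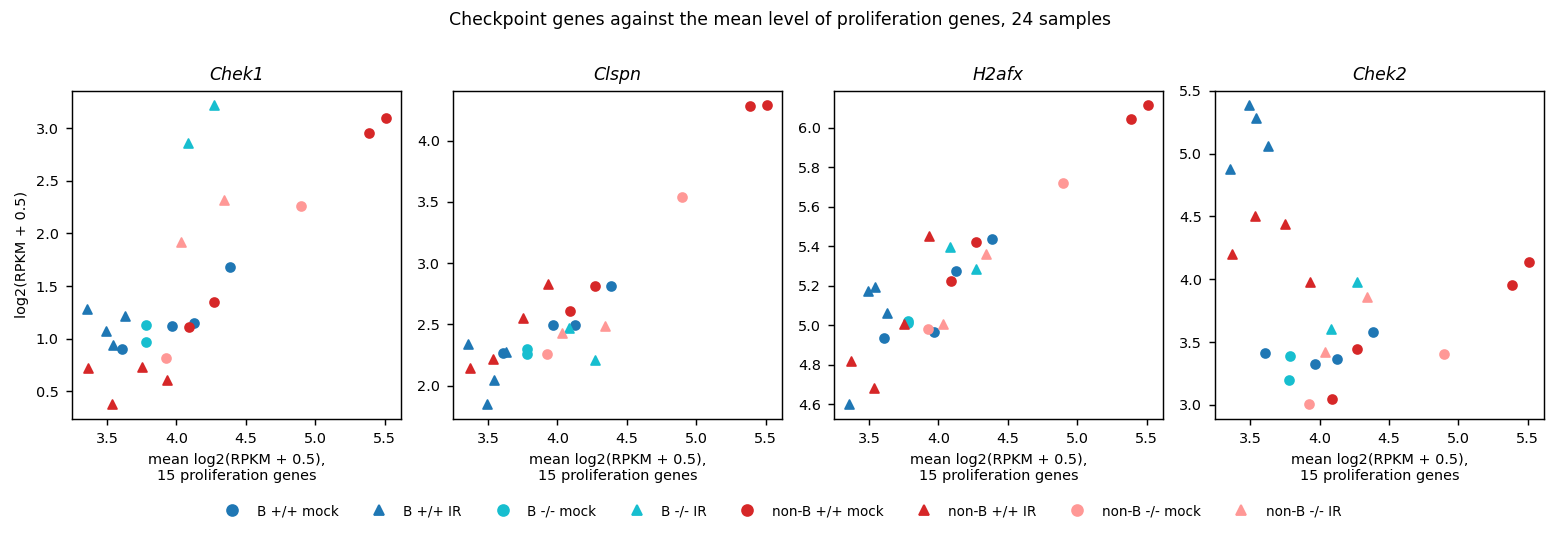
Log2(RPKM + 0.5) of Chek1, Clspn, H2afx and Chek2 (y axis) against the mean log2(RPKM + 0.5) of 15 proliferation genes (x axis), with 1 point per sample and colours and shapes by group. Unstressed Trp53+/+ non-B replicates 1 and 2 lie at the far right, high for Clspn, H2afx and Chek1, while Chek2 is highest in irradiated Trp53+/+ B samples, which lie at the left.

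The gene whose log2 level followed Chek1 most closely was Mcm5, a subunit of the replication helicase (r = 0.954 over the 24 samples, the highest of 13063 genes). In Trp53-/- B cells Mcm5 went from 20.2 and 19.5 RPKM to 43.4 and 37.0 RPKM after IR. Mki67 went from 26.4 and 25.9 RPKM to 30.9 and 27.8 RPKM. Mcm5 was far higher in both irradiated samples, and Mki67 stood closer to its unstressed values. Orc6, of the origin recognition complex, and Fignl1 came next after Mcm5 for Chek1, at 0.942 and 0.933.

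Clspn was followed most closely by the mitotic genes Spag5 (r = 0.982), Aurka (0.977) and Prr11 (0.976), and H2afx by Cdca2 (0.940) and Cdca5 (0.921). The closest to Chek2 were Hacd2 (0.965), Nudcd2 (0.943) and Apoo (0.941), to Atm Pus3 (0.980), Fam208b (0.965) and 2810403A07Rik (0.955), and to Atr Thoc1 (0.981), Fastkd2 (0.974) and Wdr36 (0.971). Atrip was closest to Ndor1 (0.953), Topbp1 to Fem1b (0.961) and Rad17 to Uba6 (0.937). Mdc1 had no gene above 0.840, that of Rnf123. Among the members themselves, Atm and Atr had an r of 0.93, Clspn and H2afx 0.85, and Atr and Rad17 0.84, while Chek1 and Chek2 had -0.11. All of these values run over the same 24 samples of 8 groups.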

How the data were processed

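The authors deposited 1 table of RPKM values per sample, made from RNA depleted of ribosomal RNA and sequenced from unstranded libraries. As the labels and methods give it, they aligned the reads to mm9 with TopHat (TopHat2 2.0.8 in the submitters' processing notes), kept 1 of each set of duplicated reads, which lowers highly expressed genes, counted reads on UCSC genes with featureCounts 1.4.5 and scaled to gene length and to reads on exons. Read counts were not analysed here, so that the count model used by the study was not run.

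From the RPKM values, log2(RPKM + 0.5) was fitted with limma 3.58.1 (mean-variance trend) in R 4.3.3, over the 12 samples of each cell type with 4 group means, and over the 16 Trp53+/+ samples for cell type. Genes were kept if any Trp53+/+ sample of the fit had an RPKM above 1, 13821 in B cells, 14018 in non-B cells and 14598 over both. The p-values were adjusted by Benjamini-Hochberg over all genes of a fit. Other steps used Python 3.11.15, pandas 2.3.3 and matplotlib 3.10.9, and the fits were tested on simulated data. Depth was estimated as the number of reads at which low RPKM values times exon length (GENCODE, NCBIM37) come nearest to whole reads, 4.74 to 10.96 M, and is approximate. Counting error falls with depth and is largest for Chek1.

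Groups came from the sample labels. All 10 members are named in every comparison. From each list of other pathway genes, those named are the called genes with the largest change in each direction in Trp53+/+ cells of each type, and Ppm1d, and for each member the genes most correlated with it. A further gene correlated with H2afx is not reported here. The members and lists were chosen with earlier results of these data known. Same-numbered unstressed and irradiated Trp53+/+ non-B samples had deviations from their group means that correlated at 0.33, 0.155, 0.22 and 0.329. All were over 0.1, the rule by which their numbers were taken to pair them. Unstressed replicates 2 and 3 correlated more with a differently numbered irradiated sample, at up to 0.316 and 0.325, so that this pairing is uncertain. In Trp53-/- non-B cells the same-number correlation was -0.264. The main fits used no pairing. In B cells the correlations were between 0.01 and 0.091. Alternatives were other pseudocounts (0.1 and 1), filters, scalings, a replicate block, a receptor gene covariate, Trp53+/+ samples alone, no minimum fold, and each sample left out in turn. Leaving out the 2 pairs of libraries that stood apart, and a block with crossed numbers, were added after the data were seen. Protein sequences and the promoter of H2afx were not used here.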

Additional observations from a re-analysis of the deposited data

Results flagged for a closer look

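In unstressed Trp53+/+ non-B samples, the Atr level of replicate 3, 12.9 RPKM, was apart from the other 3, with a gap of 0.875 of the group's range. The range itself was narrow, 11.47 to 12.95 RPKM, against 8.06 to 14.87 RPKM in irradiated Trp53+/+ non-B samples. It rests on a lone sample of a small group, and how often such a gap arises by chance was not tested.

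Tests of the difference itself marked the other results. In B cells, the response of Trp53+/+ cells minus that of Trp53-/- cells was 1.23 on the log2 scale for Chek2, -2.07 for Chek1, -0.45 for Rad17, -0.38 for Atm and -0.39 for Atr. Chek2 was higher in all 4 irradiated Trp53+/+ samples than in both irradiated Trp53-/- samples, and Chek1 lower. In non-B cells, Mdc1 had a difference of -0.39. The Trp53+/+ response of B cells minus that of non-B cells was 1.44 for Chek1, 1.10 for Chek2, 0.51 for Topbp1 and 0.35 for Mdc1.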

How the results depend on the processing

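None of the 18 called values of members changed sign under any alternative or with any sample left out, while uncalled values did. Pseudocounts of 0.1 and 1 lost no call. Leaving out each sample in turn moved the number of members called between 2 and 5 in Trp53-/- B cells, 2 and 5 for the genotype difference in B cells, 0 and 3 in Trp53+/+ non-B cells, 0 and 1 for the genotype difference in non-B cells, and 0 and 3 for unstressed B against non-B cells. The shares of all genes called in these fits are not given beside the counts, and the cause was not tested.

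For the genotype difference in B cells, 3 members rather than 5 were called with no filter on low values, median-ratio scaling, quantile normalization, the replicate block, the receptor gene covariate, or without irradiated Trp53+/+ B replicates 1 and 2. In Trp53+/+ B cells 3 members were called with the receptor covariate, 5 with no minimum fold and 2 without these libraries. With no minimum fold, 7 were called in Trp53-/- B cells, 3 in Trp53+/+ non-B cells, 5 for unstressed and 7 for irradiated B against non-B cells. The shares of all genes by that rule were 40.1%, 18.7%, 41% and 60.1%, and 51.3% in Trp53+/+ B cells. Under the other settings the shares of all genes are not given here, so that these counts do not separate a shift of the members from one of all genes. In Trp53+/+ non-B cells 0 were called with no filter, the receptor covariate or Trp53+/+ samples alone, 2 with quantile normalization, 3 with the replicate block and 4 with the block with Trp53-/- numbers crossed. The genotype difference in non-B cells had 0 calls with quantile normalization, the replicate block, the receptor covariate or without unstressed Trp53+/+ non-B replicates 1 and 2. Unstressed B against non-B cells had 2 calls with a pseudocount of 1, an RPKM above 1 in at least 4 samples, quantile normalization or the replicate block, and 0 with no filter or without those 2 libraries, and irradiated B against non-B cells had 5 with quantile normalization, which raised the median difference of all genes there to 0.14. The cell type difference of the response had 3 calls rather than 4, without Chek1, with no filter (limma adjusted p = 0.0917) or the receptor covariate (limma adjusted p = 0.0568), and 3 without either pair of libraries. The replicate block as numbered changed no other call. With the Trp53-/- numbers crossed, the genotype difference in non-B cells had 1 call, Atm rather than Mdc1.

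Chek1 had about 36 to 410 reads in a sample, and its change after IR had an SE of 0.647 on the log2 scale in Trp53-/- non-B cells and 0.256 in Trp53-/- B cells, each with 2 samples a group.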
